A study of Arabidopsis thaliana with 24 samples.

Results

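The 48 genes described here are known or named for root hair growth in Arabidopsis thaliana and for the cell walls of root hairs. They were chosen by name, from the expansins, xyloglucan enzymes, proline-rich proteins, extensins, peroxidases, signalling proteins and cytoskeletal proteins that earlier work ties to these cells or that belong to the same families. The rule itself uses no measured level, but the genes were chosen with earlier results of these data known. Their counts beside the shares of all genes are therefore descriptions. All 48 were found among the 33602 genes measured, and each had a mean of at least 1 RPKM in at least 1 group. RPKM is the number of reads of a gene scaled by its length and by the reads of the library.

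RNA was sequenced from whole roots of seedlings 7 days old, in 24 samples that form 8 groups of 3. All seedlings spent 4 days on medium with iron (0.1 mM FeEDTA) and then 3 days on fresh medium. For 7 groups that medium lacked FeEDTA and held 300 µM ferrozine, a chelator that binds remaining iron. The mutant among them is called pye-1 in the series' design and PYE in the sample records. PYE (POPEYE) is a transcription factor of the basic helix-loop-helix family that acts when iron is short. The other 5 groups are lines of a study of mislocalized POPEYE, labelled by where GFP was seen. The labels give V-EN-C-EP for PPL, V-EN for SHR23, C-EN-V for PEP45, EP-C for WER13 and EP for WER65, without spelling these letters out. A deposited sheet on promoters that drive PYE pairs SHR with the vasculature, SCR with the endodermis, PEP with the cortex and WER with the epidermis. The labels state neither the genetic background of these 5 lines nor how many independent insertions each stands for. The remaining groups are wild type without iron (WT-Fe) and wild type on 0.1 mM FeEDTA throughout (WT+Fe).

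Root hairs are tubes that grow at their tip from single epidermal cells. A ROP GTPase marks the spot where the hair emerges, an NADPH oxidase feeds local reactive oxygen and calcium signals there, and vesicles carry new wall to the tip. Expansins and xyloglucan enzymes loosen and rebuild that wall, while extensins and other proline-rich proteins are cross-linked in it by peroxidases. The basic helix-loop-helix factors RHD6 and RSL4 switch on many of these genes, and root hairs are a main surface for nutrient uptake.

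Short stretches upstream of several of these genes hold the root hair element, a motif that hair-specific genes of flowering plants share and that RSL4 and related factors bind. It was found, on either strand, in the 250 bases before the gene start of 11 of the 48 genes (22.9%) and of 207 of 27443 protein-coding genes (0.754%). Over 1000 bases the counts were 17 of 48 (35.4%) and 796 of 27443 (2.90%). The genes named root hair specific were picked in earlier work partly by this motif, so the share is not independent of how they were chosen. Of those 14 genes 6 held it within 250 bases, and of the other 34 genes 5 did. Whether genes among these 34 helped to define the motif was not looked into, so their share may not be independent either. None of the 11 extensins held it in either window. The hexamer CACGTG, the core motif of many basic helix-loop-helix proteins, was in none of the 48 shorter windows, against 6.49% of all protein-coding genes, and in 1 of 48 of the longer ones (2.08%), against 14.8%. A match is a match of letters in a window and was not tested as a binding site.

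The stretches around 10 of these matches are shown because genes of 5 of the 6 roles below hold such a match. They come from the RefSeq genome build TAIR10.1 and are written along the strand of each gene, with the match in capitals. The match above EXPA18 overlaps an annotated exon of a neighbouring gene and is named only.
EXPA7: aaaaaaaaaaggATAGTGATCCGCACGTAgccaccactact
PRP1: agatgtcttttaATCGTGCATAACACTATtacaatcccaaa
PRP3: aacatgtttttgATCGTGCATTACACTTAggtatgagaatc
LRX1: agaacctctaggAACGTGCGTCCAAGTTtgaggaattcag
RHS13: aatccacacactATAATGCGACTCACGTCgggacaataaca
RHS18: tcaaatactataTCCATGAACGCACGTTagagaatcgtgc
RHS3: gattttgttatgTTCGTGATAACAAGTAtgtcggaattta
RHS15: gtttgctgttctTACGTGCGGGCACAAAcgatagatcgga
RSH4: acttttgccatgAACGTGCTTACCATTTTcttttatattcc
MRH6: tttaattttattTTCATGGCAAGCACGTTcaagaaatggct
In order, these windows lie at chr1:4276415-4276455 (+ strand), chr1:20504760-20504800 (+), chr3:23182543-23182583 (+), chr1:4069887-4069926 (+), chr4:993221-993261 (- strand), chr5:7426206-7426245 (+), chr1:5615691-5615730 (+), chr4:12920624-12920663 (+), chr1:10984977-10985017 (+) and chr2:1132035-1132075 (+). The motif reads along the gene in EXPA7, RHS13, RHS18 and MRH6 and against it in the other 6.

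**Figure D1:**
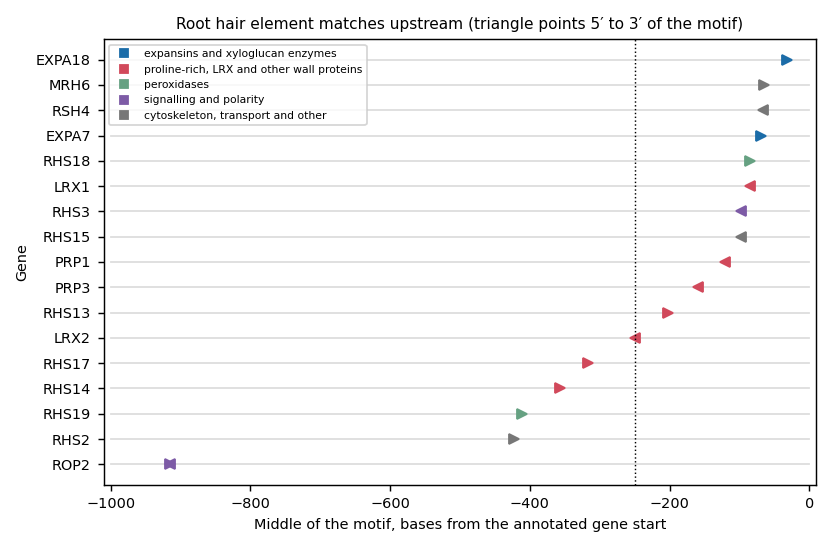
Position of each root hair element match in the 1000 bases before the annotated start of 17 of the 48 genes, in bases from the start, coloured by the role of the gene. A triangle points along the motif, the dotted line stands 250 bases before the start, and 11 genes have their match to its right; ROP2 has a match on each strand at the same place.

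The levels of the 48 genes ran high on iron and low in pye-1. Of the 8 group means, the highest was in WT+Fe for 46 genes and in PPL for 2, and the lowest was in pye-1 for 33, WER13 for 6, PEP45 for 5, SHR23 for 3 and WT+Fe for 1. The median over the 48 genes was 1.58 RPKM in pye-1, 9.13 in PPL, 2.52 in SHR23, 2.58 in PEP45, 2.47 in WER13, 7.76 in WER65, 12.6 in WT-Fe and 29.8 in WT+Fe. By these medians pye-1, SHR23, PEP45 and WER13 were low and PPL and WER65 lay nearer to WT-Fe. Of the 48 genes, 30 had at least 1 RPKM in pye-1, 46 in PPL, 35 in SHR23, 37 in PEP45, 37 in WER13, 45 in WER65, 47 in WT-Fe and 48 in WT+Fe. The deposited levels are the authors' mean of each group, so no spread between the 3 samples of a group can be given. Statements of a change rest on the q-values of the authors' deposited tables, whose listed genes all have a q under 0.05 and differ about 1.5-fold or more. RNA came from whole roots, so fewer hair cells and less RNA per hair cell cannot be told apart in any of these values.

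**Figure D2:**
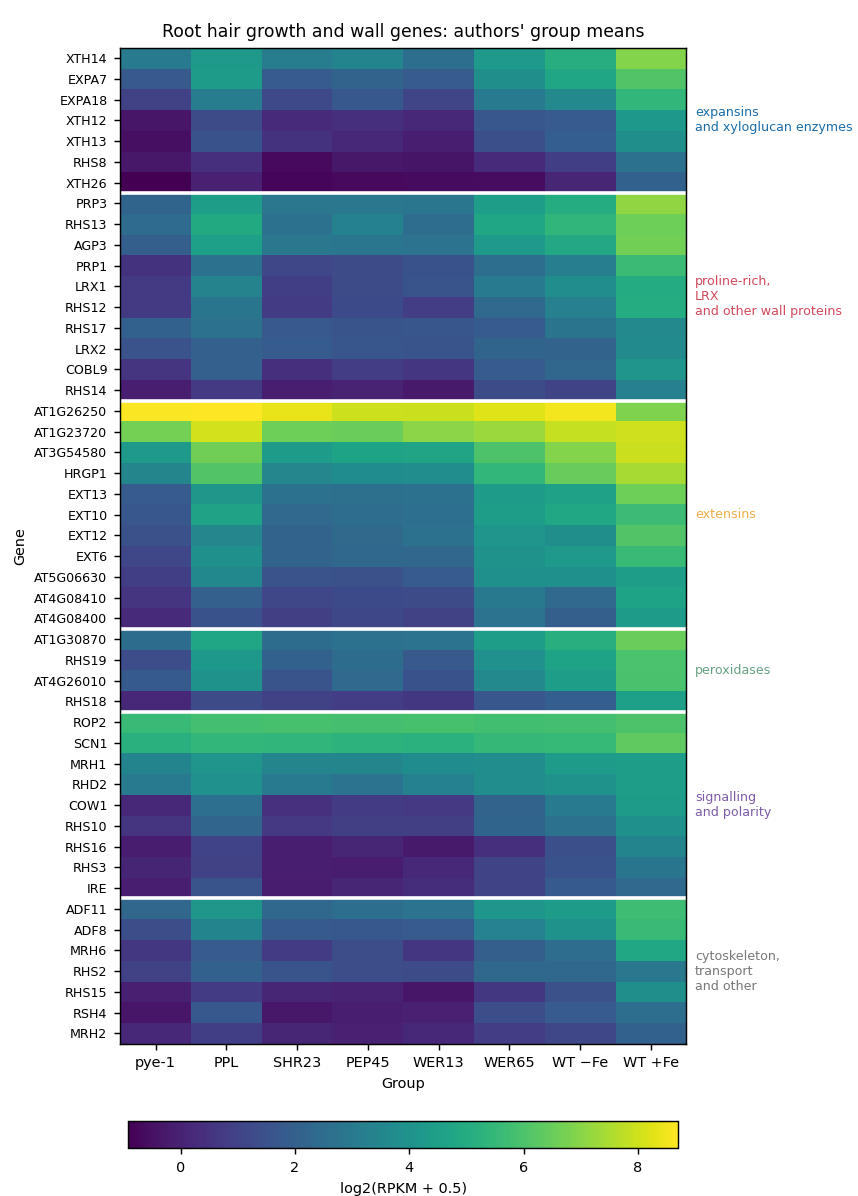
Level of each of the 48 genes in the 8 groups, as log2(RPKM + 0.5) of the authors' group means, in 6 blocks by role and ordered by mean level within a block. The columns of pye-1, SHR23, PEP45 and WER13 are darker than those of PPL, WER65 and WT-Fe in most rows, and WT+Fe is the brightest for 46 of the 48 genes.

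In pye-1 nearly the whole set stood below WT-Fe under the same lack of iron. The authors' deposited table lists 44 of the 48 genes as lower and none as higher, against 10.2% of the 19767 genes with at least 1 RPKM in some group listed as lower and 8.89% as higher. Of the 48, 41 were at least 2-fold lower on log2(RPKM + 0.5), against 5.41% of all genes kept. The median gene was at 15.5% of its WT-Fe level, with a range of 4.99% to 108%, and its difference on log2(RPKM + 0.5) was -2.11. Over all 19767 genes the median difference lay between -0.0079 and 0.0021 in the 7 comparisons that have an authors' table. All 7 expansins and xyloglucan enzymes, all 10 proline-rich and related wall proteins, 9 of 11 extensins, all 4 peroxidases, 7 of 9 signalling genes and all 7 cytoskeletal, transport and other genes were listed. The 4 genes not listed are the extensins AT1G23720 and AT1G26250, the GTPase ROP2 and the ROP regulator SCN1.

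Lack of iron in wild type went with lower levels of most of these genes. The authors' deposited table of WT-Fe against WT+Fe lists 38 of 48 as lower, against 11.7% of all genes kept, and 1 as higher, AT1G26250, against 10.3% of all genes kept. At least 2-fold lower were 34 of the 48, against 5.85% of all genes kept, and AT1G26250 was at least 2-fold higher, against 7.02%. The median gene was at 36.6% of its WT+Fe level, a difference of -1.37 on log2(RPKM + 0.5). The genes listed as lower took in all 7 expansins and xyloglucan enzymes, 9 of 10 proline-rich and related wall proteins, 6 of 11 extensins, all 4 peroxidases, 6 of 9 signalling genes and 6 of 7 others. RHS13, AT5G06630, EXT10, EXT6, AT1G23720, RHD2, ROP2, MRH1 and RHS2 were not listed. Both this comparison and the one of pye-1 use the WT-Fe samples, so their values are given side by side and their overlap was not tested.

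PPL and WER65 stood nearest to WT-Fe for these genes. In PPL the authors' deposited table lists none of the 48, against 0.0101% of all genes listed as lower and 0.00506% as higher. That table is headed PYE and was taken as the one for PPL, since another is headed pye-1. The median gene in PPL was at 76.0% of WT-Fe, 45 of the 48 means lay below WT-Fe, and the median difference was -0.38. In WER65 the authors' deposited table lists 15 as lower, against 11.5% of all genes, and 1 as higher, against 7.87%. The median gene in WER65 was at 66.7% of WT-Fe, and only HRGP1 and RHS16 among the listed genes were at least 2-fold lower, against 5.71% of all genes. Both lines thus stood below WT-Fe by value for most of these genes, with a list of 0 calls in PPL and of 16 in WER65.

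SHR23, PEP45 and WER13 stood far below WT-Fe. The authors' deposited tables list as lower 43 of 48 genes in SHR23, against 10.6% of all genes, 42 in PEP45, against 9.64%, and 45 in WER13, against 14.1%. None of the 48 was listed as higher, against 7.56% of all genes in SHR23, 8.43% in PEP45 and 8.99% in WER13. At least 2-fold lower were 39 of the 48 in SHR23, against 5.15% of all genes, 40 in PEP45, against 4.35%, and 38 in WER13, against 7.43%. The median gene was at 21.2% of WT-Fe in SHR23, 23.7% in PEP45 and 21.8% in WER13. ROP2 and SCN1 were listed in none of the 3, nor was XTH26, whose level rested on about 5 reads in SHR23, 8 in PEP45 and 7 in WER13 over a whole group. LRX2 and AT1G26250 were not listed in SHR23 or PEP45, and AT4G08400 was not listed in PEP45. Each of these comparisons uses the same WT-Fe samples.

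**Figure D3:**
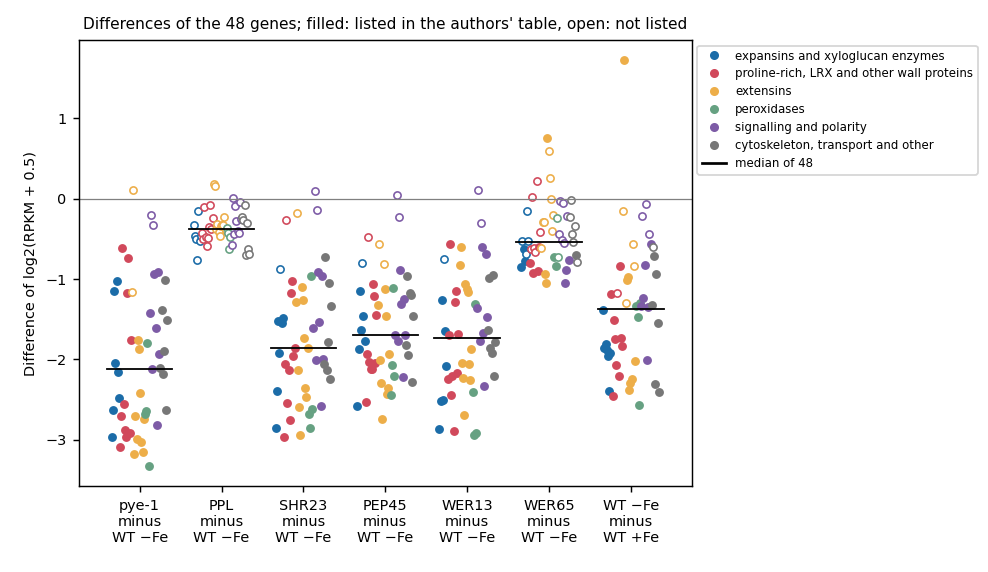
Difference of each of the 48 genes in the 7 comparisons that have an authors' table, on log2(RPKM + 0.5), coloured by role. Filled points are listed in the authors' table and open points are not, and the bar is the median of the 48 genes, which runs from -2.11 in pye-1 to -0.38 in PPL; 6 of the 7 comparisons share the WT-Fe samples and the seventh sets them against WT+Fe.

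Set directly against pye-1, PPL and WER65 had higher levels for most genes. On log2(RPKM + 0.5) the other 3 lines were within 2-fold of pye-1 for nearly all. For these pairs no q-values were at hand, so genes at least 2-fold apart on log2(RPKM + 0.5) were counted without a test. All 48 genes were higher by value in PPL than in pye-1 and 35 were at least 2-fold higher, against 3.72% of all genes. In WER65, 34 genes were at least 2-fold higher than in pye-1, against 1.13% of all genes. The 4 largest differences on log2(RPKM + 0.5) were in EXT10 (2.92), RHS19 (2.85), EXT6 (2.79) and AT5G06630 (2.70) for PPL, and in AT5G06630 (3.02), EXT6 (2.88), EXT10 (2.75) and EXT12 (2.67) for WER65. On this scale extensins thus led in both lines, with a peroxidase among those in PPL. As plain ratios, expansins and xyloglucan enzymes held the highest value in both lines. In PPL this was 1622% of pye-1, for XTH26 with about 2 reads in pye-1, against 877% for the highest extensin. In WER65 the highest ratios of these roles were 1104% and 1081%. In SHR23 only EXT6 was at least 2-fold higher, against 2.26% of all genes, and the median difference was 0.14. PEP45 had EXT6 and RHS19 at least 2-fold higher, against 1.02% of all genes, with a median difference of 0.40. WER13 had PRP1, EXT12 and EXT6 at least 2-fold higher, against 0.809% of all genes, with a median difference of 0.33. These counts depend on the threshold, since 15 genes in SHR23, 19 in PEP45 and 12 in WER13 were at least 1.5-fold apart from pye-1 in either direction. They also depend on the added 0.5, which shrinks differences of low genes. With 0.1 added instead, 5 genes in SHR23, 6 in PEP45 and 5 in WER13 were at least 2-fold apart. As plain ratios, the median gene stood at 114% of pye-1 in SHR23, 147% in PEP45 and 133% in WER13. For the 11 extensins the median was 174%, 187% and 201%. By value 10 of the 48 genes in SHR23, 7 in PEP45 and 9 in WER13 were lower than in pye-1. No gene of the 48 was at least 2-fold lower than in pye-1 on log2(RPKM + 0.5). Of all genes, 2.93% were that low in PPL, 1.74% in SHR23, 0.273% in PEP45, 1.92% in WER13 and 1.07% in WER65. As a plain ratio RHS8 stood in SHR23 at 41.7% of its pye-1 level, on about 23 reads in SHR23.

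WER13 and WER65, whose labels both give EP, differed in 32 of the 48 genes by at least 2-fold, all lower in WER13, against 0.89% of all genes at least 2-fold lower and 0.304% at least 2-fold higher. The median gene in WER13 was at 32.0% of its level in WER65. The 32 comprised 5 of 7 expansins and xyloglucan enzymes, 8 of 10 proline-rich and related proteins, 9 of 11 extensins, all 4 peroxidases, 2 of 9 signalling genes and 4 of 7 others. The largest differences on log2(RPKM + 0.5) were in RHS13 (-2.22), RHS19 (-2.18), AT4G26010 (-2.10) and AT5G06630 (-2.06). ROP2 was the one gene higher by value in WER13, at 109.9% of its WER65 level. SHR23 and PEP45, by contrast, had no gene of the 48 at least 2-fold apart on log2(RPKM + 0.5). Of all genes, 1.57% were at least 2-fold lower in SHR23 and 1.22% at least 2-fold higher. The median difference of the 48 was -0.12. On this scale AT4G26010, RHS13, MRH6 and EXPA18 differed most between SHR23 and PEP45, by -0.79, -0.63, -0.61 and -0.52, all lower in SHR23. As a plain ratio RHS8 stood in SHR23 at 42.0% of its PEP45 level.

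**Figure D4:**
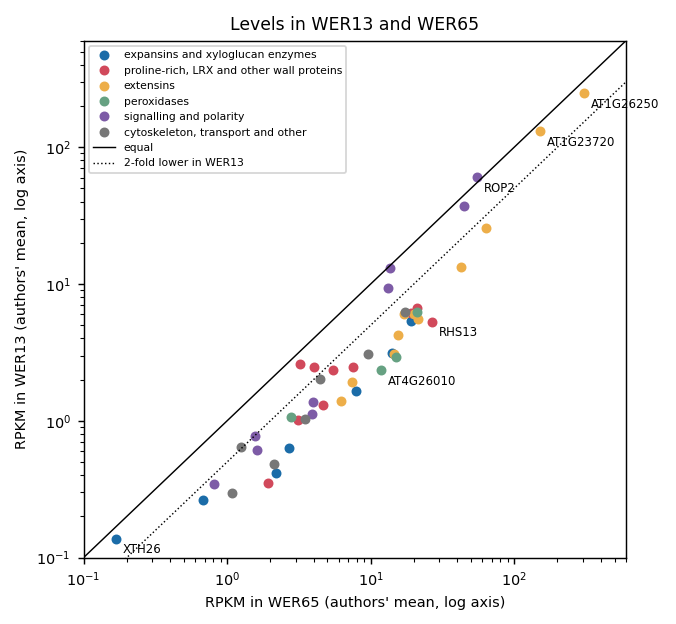
Level of each of the 48 genes in WER13 against WER65 as the authors' group means in RPKM, on log axes, coloured by role. All points but ROP2 lie below the line of equal levels, and genes below the dotted line, which marks plain ratios of 2, are more than 2-fold lower in WER13.

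Expansins and xyloglucan enzymes, which loosen and reshape the growing wall, were all listed as lower in pye-1 in the authors' deposited table. Of the 48 genes, 15 were listed as lower in 6 of the 7 comparisons and 19 in 5, and for single genes the q-values quoted here and for the other roles are not always all of those listed. EXPA7 (AT1G12560, chr1:4276505-4277969), an alpha-expansin of root hairs, had 2.88 RPKM in pye-1, 20.5 in PPL, 3.17 in SHR23, 3.93 in PEP45, 3.11 in WER13, 14.1 in WER65, 25.9 in WT-Fe and 68.6 in WT+Fe. It was thus about as low in SHR23, PEP45 and WER13 as in pye-1, and highest on iron. The authors' deposited tables list EXPA7 as lower in pye-1 (q = 7.08e-06, -2.97 on log2(RPKM + 0.5)), SHR23 (q = 3.47e-05), PEP45 (q = 1.67e-07), WER13 (q = 4.48e-07) and WER65 (q = 0.00259) against WT-Fe, and in WT-Fe against WT+Fe (q = 0.000804). EXPA18 (AT1G62980, chr1:23331563-23333246), its closest partner in hair initiation, had 1.47 RPKM in pye-1, 8.34 in PPL, 1.83 in SHR23, 2.84 in PEP45, 1.64 in WER13, 7.95 in WER65, 11.7 in WT-Fe and 43.8 in WT+Fe. PEP45 was the highest of the 4 low groups for EXPA18. The authors' deposited tables list EXPA18 as lower in pye-1 (q = 1.81e-05), SHR23 (q = 0.000972), PEP45 (q = 1.16e-05) and WER13 (q = 1.47e-06), and in WT-Fe against WT+Fe (q = 0.000677), but not in WER65.

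XTH14 (AT4G25820, chr4:13130291-13131860), which cuts and rejoins xyloglucan chains, was the most abundant enzyme of this role, with 7.58 RPKM in pye-1, 19.1 in PPL, 8.31 in SHR23, 10.3 in PEP45, 5.38 in WER13, 19.0 in WER65, 32.9 in WT-Fe and 122 in WT+Fe. WER13 and not pye-1 had its lowest level, and the authors' deposited tables list it as lower in WER13 (q = 4.08e-07), PEP45 (q = 8.04e-06) and WER65 (q = 0.0140). XTH12 and XTH13 are neighbours on chromosome 5 with 92.6% identical proteins, but none of the 50-base stretches of either transcript occurs in another gene. XTH12 had 0.298 RPKM in pye-1, 1.97 in PPL, 0.713 in SHR23, 0.796 in PEP45, 0.637 in WER13, 2.70 in WER65, 3.06 in WT-Fe and 18.1 in WT+Fe. XTH13 had 0.198 RPKM in pye-1, 2.31 in PPL, 0.890 in SHR23, 0.636 in PEP45, 0.415 in WER13, 2.19 in WER65, 3.38 in WT-Fe and 14.2 in WT+Fe. Both stood under 1 RPKM in pye-1, SHR23, PEP45 and WER13, and several times above WT-Fe on iron. RHS8, a glycosyltransferase of xyloglucan, had 0.321 RPKM in pye-1, 0.788 in PPL, 0.134 in SHR23, 0.319 in PEP45, 0.263 in WER13, 0.683 in WER65, 1.32 in WT-Fe and 5.89 in WT+Fe, and the authors' deposited table gives it the smallest q among the 48 genes for WT-Fe against WT+Fe (0.000105). XTH26, a root hair xyloglucan endotransglucosylase, was the weakest of the 48 in pye-1, where 0.0287 RPKM corresponds to about 2 reads over the group, against 0.576 RPKM or about 38 reads in WT-Fe.

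The proline-rich, leucine-rich repeat and other wall proteins include structural proteins of the hair wall and enzymes of pectin. PRP3 (AT3G62680, chr3:23182722-23184042), a structural proline-rich protein of hair walls, had 4.00 RPKM in pye-1, 21.6 in PPL, 7.03 in SHR23, 7.12 in PEP45, 6.70 in WER13, 21.2 in WER65, 32.6 in WT-Fe and 138 in WT+Fe. Its relative PRP1 (AT1G54970, chr1:20504901-20506504) had 0.905 RPKM in pye-1, 5.95 in PPL, 1.71 in SHR23, 1.90 in PEP45, 2.33 in WER13, 5.47 in WER65, 8.67 in WT-Fe and 49.9 in WT+Fe. Both were lowest in pye-1, with PPL and WER65 close to each other, and WT+Fe stood at 4.25 times the WT-Fe level for PRP3 and 5.75 times for PRP1. The authors' deposited tables list PRP3 as lower in WER13 (q = 2.03e-06) and PRP1 as lower in SHR23 (q = 1.34e-05), each against WT-Fe. LRX1 (AT1G12040, chr1:4069992-4072681), a leucine-rich repeat extensin that hairs need to keep their shape, had 1.15 RPKM in pye-1, 9.92 in PPL, 1.30 in SHR23, 1.92 in PEP45, 2.46 in WER13, 7.56 in WER65, 13.5 in WT-Fe and 31.4 in WT+Fe. The authors' deposited tables list LRX1 as lower in pye-1 (q = 1.68e-05, -3.09 on log2(RPKM + 0.5)) and in WER65 (q = 0.0204). Its partner LRX2 differed less between the iron-deficient groups, with 2.38 RPKM in pye-1, 3.60 in PPL, 3.19 in SHR23, 2.67 in PEP45, 2.49 in WER13, 4.00 in WER65, 3.92 in WT-Fe and 12.1 in WT+Fe, and the authors' deposited table lists it as lower in WT-Fe against WT+Fe (q = 0.000399), with pye-1 and WER13 also listed as lower against WT-Fe (q = 0.0255 and 0.0218).

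COBL9 (SHV2), a surface-anchored protein of tip growth, had 0.927 RPKM in pye-1, 3.59 in PPL, 0.837 in SHR23, 1.28 in PEP45, 1.01 in WER13, 3.14 in WER65, 4.34 in WT-Fe and 16.7 in WT+Fe. SHR23 was lowest for COBL9, and the authors' deposited tables list it as lower in SHR23 (q = 1.04e-05) and in WT-Fe against WT+Fe (q = 0.000223). AGP3, an arabinogalactan protein, had 3.47 RPKM in pye-1, 22.6 in PPL, 7.19 in SHR23, 6.77 in PEP45, 6.18 in WER13, 19.2 in WER65, 29.5 in WT-Fe and 99.3 in WT+Fe. RHS13 (AT4G02270, chr4:992111-993039) had 4.97 RPKM in pye-1, 29.9 in PPL, 5.88 in SHR23, 9.37 in PEP45, 5.30 in WER13, 26.5 in WER65, 42.3 in WT-Fe and 96.3 in WT+Fe. Its level in WT+Fe was 2.28 times that in WT-Fe, which the authors' deposited table does not list, while it lists RHS13 as lower in pye-1 (q = 9.38e-05). RHS12, of the pectin methylesterase family, had 1.16 RPKM in pye-1, 6.51 in PPL, 1.17 in SHR23, 1.89 in PEP45, 1.30 in WER13, 4.64 in WER65, 9.26 in WT-Fe and 32.2 in WT+Fe, with pye-1 and SHR23 alike at its lowest levels. The authors' deposited tables list RHS12 as lower in SHR23 (q = 9.94e-06) and in WER65 (q = 0.00283). RHS14, of the pectate lyase family, was higher by value in WER65 than in WT-Fe, at 1.92 against 1.58 RPKM, and neither direction was listed. RHS17 was low in WER65 as well, with 3.67 RPKM in pye-1, 6.07 in PPL, 2.91 in SHR23, 2.50 in PEP45, 2.61 in WER13, 3.22 in WER65, 6.42 in WT-Fe and 11.9 in WT+Fe. WER65 lay near SHR23 for RHS17 and not near PPL, and the authors' deposited table gives RHS17 the smallest q among the 48 genes for WER65 against WT-Fe (0.000334, -0.90 on log2(RPKM + 0.5)).

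Extensins are rod-like wall proteins built of repeats of serine followed by prolines, which form the scaffold of the hair wall. The 11 proteins are 334 to 957 residues long in TAIR10.1, hold 14 to 68 blocks of a serine followed by 4 prolines, and consist of 32.0% to 44.5% proline. They include the most abundant gene of all 48. In WER65 they went both ways against WT-Fe by value, with 8 lower and 3 higher and differences between -1.05 and 0.76 on log2(RPKM + 0.5). HRGP1 had 10.8 RPKM in pye-1, 67.0 in PPL, 11.2 in SHR23, 12.9 in PEP45, 13.4 in WER13, 42.9 in WER65, 89.2 in WT-Fe and 175 in WT+Fe. AT3G54580 had 18.4 RPKM in pye-1, 97.7 in PPL, 19.8 in SHR23, 24.6 in PEP45, 25.6 in WER13, 63.7 in WER65, 122 in WT-Fe and 247 in WT+Fe. Both were high in PPL, low in pye-1, SHR23, PEP45 and WER13, and between these levels in WER65. The authors' deposited tables list HRGP1 as lower in pye-1 (q = 1.4e-05) and WER65 (q = 0.00132, -1.05 on log2(RPKM + 0.5)), and AT3G54580 as lower in WER65 (q = 0.000876).

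Other extensins stood closer to their WT-Fe level in WER65, or above it. EXT6 had 1.68 RPKM in pye-1, 14.6 in PPL, 3.97 in SHR23, 4.36 in PEP45, 4.27 in WER13, 15.5 in WER65, 19.1 in WT-Fe and 47.9 in WT+Fe, and the authors' deposited table lists it as lower in pye-1 (q = 1.48e-05). EXT12 had 2.24 RPKM in pye-1, 11.1 in PPL, 3.88 in SHR23, 4.83 in PEP45, 6.02 in WER13, 17.0 in WER65, 14.1 in WT-Fe and 68.5 in WT+Fe. AT5G06630 had 1.33 RPKM in pye-1, 11.4 in PPL, 2.42 in SHR23, 2.28 in PEP45, 3.09 in WER13, 14.4 in WER65, 14.4 in WT-Fe and 21.7 in WT+Fe, with WER65 and WT-Fe at the same level to 3 digits. AT4G08400 had 0.671 RPKM in pye-1, 2.37 in PPL, 1.35 in SHR23, 1.75 in PEP45, 1.40 in WER13, 6.21 in WER65, 3.47 in WT-Fe and 20.2 in WT+Fe, and it is the single gene of the 48 that the authors' deposited table lists as higher in WER65 (q = 0.0439, 0.76 on log2(RPKM + 0.5)). The same sequence recurs in its relatives, since 51.4% of all 50-base stretches of its transcript occur elsewhere, mostly in AT4G08410, so its level is uncertain. AT4G08410, of which 40.5% of such stretches occur elsewhere, was likewise higher by value in WER65, at 7.41 against 4.74 RPKM in WT-Fe, and was not listed. EXT13 had 3.06 RPKM in pye-1, 17.7 in PPL, 6.08 in SHR23, 5.73 in PEP45, 6.01 in WER13, 20.1 in WER65, 23.3 in WT-Fe and 95.7 in WT+Fe. EXT10 had 2.77 RPKM in pye-1, 24.3 in PPL, 4.74 in SHR23, 5.18 in PEP45, 5.57 in WER13, 21.5 in WER65, 28.5 in WT-Fe and 51.4 in WT+Fe. EXT13 was 4.10 times as high in WT+Fe as in WT-Fe, and EXT10, whose WT-Fe level was 55.3% of WT+Fe, was not listed in that comparison.

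The extensins AT1G26250 and AT1G23720 departed from the other 9. AT1G26250 had 402 RPKM in pye-1, 418 in PPL, 331 in SHR23, 253 in PEP45, 247 in WER13, 305 in WER65, 374 in WT-Fe and 113 in WT+Fe. It was the most abundant of the 48 genes in each iron-deficient group and lowest on iron. The authors' deposited table lists it as higher in WT-Fe against WT+Fe (q = 0.0143, 1.72 on log2(RPKM + 0.5)), and as lower in WER13 (q = 0.0361). An annotated gene on the other strand overlaps it, and although the libraries were directional, whether the counting used strand is not given in the sources used here. AT1G23720 had 103 RPKM in pye-1, 262 in PPL, 94.9 in SHR23, 92.1 in PEP45, 131 in WER13, 151 in WER65, 232 in WT-Fe and 258 in WT+Fe, and was not listed in WT-Fe against WT+Fe. The authors' deposited table gives AT1G23720 the smallest q among the 48 genes for SHR23 (3.22e-06), and does not list it for pye-1, where it stood at 44.5% of WT-Fe.

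All 4 peroxidases, class III enzymes that cross-link wall proteins or make reactive oxygen, were lower in pye-1, SHR23, PEP45 and WER13 and in WT-Fe against WT+Fe by the authors' deposited tables. AT1G30870 had 5.05 RPKM in pye-1, 27.2 in PPL, 5.06 in SHR23, 6.06 in PEP45, 6.22 in WER13, 21.1 in WER65, 35.2 in WT-Fe and 89.5 in WT+Fe. RHS19 had 2.07 RPKM in pye-1, 18.0 in PPL, 3.70 in SHR23, 5.06 in PEP45, 2.92 in WER13, 15.0 in WER65, 25.2 in WT-Fe and 62.5 in WT+Fe. Its pye-1 level was 8.20% of WT-Fe (q = 0.000151 in the authors' deposited table). On log2(RPKM + 0.5) its difference of -3.32 was the largest of the 48 genes in that comparison. As a plain ratio XTH26 was lower, at 4.99% of WT-Fe. For RHS19, PEP45 stood above the other 3 low groups. AT4G26010 had 3.00 RPKM in pye-1, 15.7 in PPL, 2.53 in SHR23, 4.72 in PEP45, 2.35 in WER13, 11.7 in WER65, 21.4 in WT-Fe and 60.4 in WT+Fe, lowest in WER13, and the authors' deposited table lists it as lower there (q = 1.17e-05). RHS18 was the weakest peroxidase, between 0.613 RPKM in pye-1 and 22.5 RPKM in WT+Fe, and was not listed for WER65, and nor was RHS19.

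Among the signalling and polarity genes, ROP2 and SCN1 differed little between the iron-deficient groups by value, while COW1, IRE and the RHS kinases differed several-fold. ROP2 (AT1G20090, chr1:6966842-6969009), the GTPase that marks the site of the hair, had 48.4 RPKM in pye-1, 56.0 in PPL, 59.8 in SHR23, 57.4 in PEP45, 60.1 in WER13, 54.6 in WER65, 55.7 in WT-Fe and 64.9 in WT+Fe. Its 8 means lay within 1.5-fold of each other and it was the one gene listed in none of the 7 comparisons. SCN1, which confines ROP activity to 1 site per cell, stood between 36.5 RPKM in pye-1 and 46.1 RPKM in WT-Fe among the iron-deficient groups, and the authors' deposited table lists it as lower in WT-Fe against WT+Fe (q = 0.00100). RHD2, the NADPH oxidase of hair tips, had 7.98 RPKM in pye-1, 15.0 in PPL, 7.70 in SHR23, 6.21 in PEP45, 9.41 in WER13, 13.3 in WER65, 15.5 in WT-Fe and 21.2 in WT+Fe. The authors' deposited tables list RHD2 as lower in pye-1 (q = 0.000932), SHR23 (q = 4.36e-05), PEP45 (q = 5.66e-06), its lowest group, and WER13 (q = 0.000223), and not in WER65 or in WT-Fe against WT+Fe. MRH1, a receptor-like kinase of hair growth, had 10.3 RPKM in pye-1, 16.5 in PPL, 10.5 in SHR23, 10.7 in PEP45, 13.1 in WER13, 13.6 in WER65, 20.1 in WT-Fe and 21.2 in WT+Fe, and the authors' deposited tables list it as lower in pye-1 (q = 6.15e-05), SHR23 (q = 1.52e-05), PEP45 (q = 1.56e-05) and WER13 (q = 0.000531).

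COW1, a phosphatidylinositol transfer protein that hairs need for tip growth, had 0.649 RPKM in pye-1, 5.50 in PPL, 0.853 in SHR23, 1.24 in PEP45, 1.11 in WER13, 3.88 in WER65, 7.59 in WT-Fe and 20.1 in WT+Fe. The authors' deposited tables list COW1 as lower in pye-1 (q = 1.87e-05, -2.82 on log2(RPKM + 0.5)), PEP45 (q = 5.72e-06) and WER65 (q = 0.00641). IRE, a protein kinase that promotes hair elongation, had 0.421 RPKM in pye-1, 2.45 in PPL, 0.380 in SHR23, 0.580 in PEP45, 0.771 in WER13, 1.58 in WER65, 3.01 in WT-Fe and 4.68 in WT+Fe. SHR23 was lowest for IRE, and the authors' deposited table lists it as lower there (q = 6.87e-06). RHS10, also called PERK13, a wall-associated receptor kinase that restrains hair growth, had 0.978 RPKM in pye-1, 4.22 in PPL, 1.09 in SHR23, 1.37 in PEP45, 1.38 in WER13, 3.99 in WER65, 5.92 in WT-Fe and 14.6 in WT+Fe. It was low in the same groups as the genes that promote growth, and the authors' deposited table lists it as lower in SHR23 (q = 1.34e-05). RHS16, a leucine-rich repeat kinase, had 0.384 RPKM in pye-1, 1.54 in PPL, 0.429 in SHR23, 0.588 in PEP45, 0.347 in WER13, 0.805 in WER65, 2.20 in WT-Fe and 10.3 in WT+Fe. Its WER65 level was 36.7% of WT-Fe, and the authors' deposited tables list it as lower in WER65 (q = 0.00256) and in WT-Fe against WT+Fe (q = 0.000695). RHS3, a protein kinase, ranged from 0.381 RPKM in PEP45 to 6.65 RPKM in WT+Fe.

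The cytoskeletal, transport and other genes were all listed as lower in pye-1, SHR23, PEP45 and WER13 by the authors' deposited tables, and only ADF8 was listed in WER65 (q = 0.0220). ADF11, an actin depolymerizing factor of hairs, had 4.33 RPKM in pye-1, 17.4 in PPL, 4.51 in SHR23, 5.38 in PEP45, 6.20 in WER13, 17.3 in WER65, 20.3 in WT-Fe and 51.7 in WT+Fe. ADF8, whose protein is 86% identical, stood at 2.16 RPKM in pye-1, 9.61 in WER65, 15.9 in WT-Fe and 47.4 in WT+Fe. MRH6 had 1.06 RPKM in pye-1, 3.06 in PPL, 1.19 in SHR23, 2.08 in PEP45, 1.03 in WER13, 3.50 in WER65, 5.30 in WT-Fe and 28.2 in WT+Fe, with WER13 and pye-1 level at the bottom. RSH4 had 0.284 RPKM in pye-1, 2.86 in PPL, 0.315 in SHR23, 0.425 in PEP45, 0.483 in WER13, 2.13 in WER65, 3.06 in WT-Fe and 5.34 in WT+Fe, and the authors' deposited table lists it as lower in WER13 (q = 2.43e-05). RHS15, a glycerol-3-phosphate transporter family gene, was lowest in WER13 (0.297 RPKM) and stood at 2.24 RPKM in WT-Fe and 14.0 in WT+Fe. MRH2, a kinesin with armadillo repeats, ranged between 0.470 RPKM in PEP45 and 3.73 in WT+Fe. RHS2 stood in WT-Fe at 63.4% of its WT+Fe level and was not listed in that comparison.

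The transcription factors RSL4 and LRL3, which act upstream of hair growth, were listed as lower in pye-1, SHR23, PEP45 and WER13 in the authors' deposited tables. Of a list of 18 regulators of hair fate and hair growth, the authors' deposited tables list as lower against WT-Fe 5 in pye-1 (10.2% of all genes), none in PPL (0.0101%), 4 in SHR23 (10.6%), 4 in PEP45 (9.64%), 3 in WER13 (14.1%) and none in WER65 (11.5%), and 5 in WT-Fe against WT+Fe (11.7%). Listed as higher were 3 in SHR23 (7.56% of all genes), 2 in WER13 (8.99%) and 1 in WT-Fe against WT+Fe (10.3%). With 18 genes, the 3 in WER13 are near the share of all genes. RSL4, which sets how long hairs grow, had 1.49 RPKM in pye-1, 10.7 in PPL, 1.31 in SHR23, 1.75 in PEP45, 3.46 in WER13, 9.84 in WER65, 13.3 in WT-Fe and 16.1 in WT+Fe. RSL4 was low in pye-1, SHR23 and PEP45, somewhat higher in WER13, and high in the other 4 groups. The authors' deposited tables list RSL4 as lower in pye-1 (q = 4.53e-05), SHR23 (q = 6.49e-06), PEP45 (q = 1.5e-05) and WER13 (q = 0.000184), and not in WT-Fe against WT+Fe. LRL3, a related factor, had 2.95 RPKM in pye-1, 14.9 in PPL, 2.86 in SHR23, 4.03 in PEP45, 4.68 in WER13, 15.2 in WER65, 19.9 in WT-Fe and 49.2 in WT+Fe. LRL3 was low in the same 4 groups, and the authors' deposited tables list it as lower in each (q = 1.41e-05 in pye-1 and 2.77e-05 in WER13) and in WT-Fe against WT+Fe (q = 0.00176).

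RSL2, a relative of RSL4, had 0.333 RPKM in pye-1, 1.47 in PPL, 0.243 in SHR23, 0.324 in PEP45, 0.750 in WER13, 1.81 in WER65, 1.21 in WT-Fe and 8.11 in WT+Fe, and the authors' deposited table lists it as lower in WT-Fe against WT+Fe (q = 0.000273, -2.33 on log2(RPKM + 0.5)). It is listed as lower against WT-Fe in pye-1 (q = 0.00470), SHR23 (q = 0.00158) and PEP45 (q = 0.00522) in the authors' deposited tables. LRL1 had 40.4 RPKM in pye-1, 43.6 in PPL, 46.5 in SHR23, 42.8 in PEP45, 47.8 in WER13, 52.8 in WER65, 44.2 in WT-Fe and 76.4 in WT+Fe and was listed as lower for lack of iron only (q = 0.000951 in the authors' deposited table). GL2, which represses hair fate in the other epidermal cells, had 1.93 RPKM in pye-1, 3.14 in PPL, 2.06 in SHR23, 1.96 in PEP45, 2.18 in WER13, 2.52 in WER65, 3.43 in WT-Fe and 3.69 in WT+Fe, and the authors' deposited tables list it as lower in pye-1 (q = 0.00698), SHR23 (q = 0.00231), PEP45 (q = 0.00511) and WER13 (q = 0.00511). ETC1, a small MYB protein that favours hair fate, ran the other way on iron, with 14.7 RPKM in pye-1, 18.2 in PPL, 10.5 in SHR23, 14.7 in PEP45, 23.3 in WER13, 15.1 in WER65, 13.9 in WT-Fe and 2.84 in WT+Fe. The authors' deposited tables list ETC1 as higher in WT-Fe against WT+Fe (q = 0.000320) and in WER13 against WT-Fe (q = 0.00478). RHD6, which starts hair growth, stood between 2.44 RPKM in pye-1 and 5.96 in WT+Fe and was listed in no comparison.

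**Figure D5:**
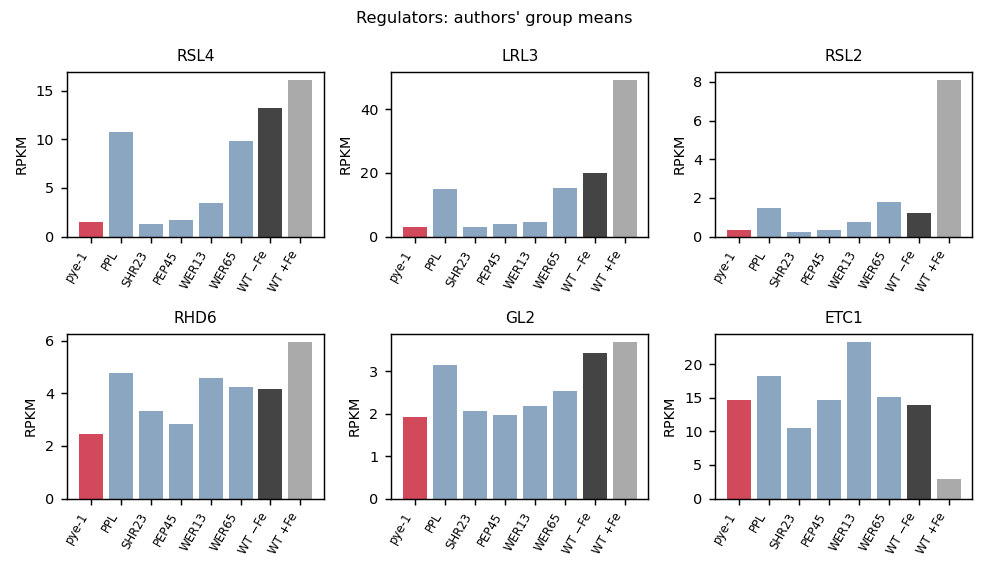
Level of 6 regulators in the 8 groups, as the authors' group means in RPKM, with an axis from 0 for each gene and no error bars because 1 mean per group was deposited. RSL4 and LRL3 are low in pye-1, SHR23, PEP45 and WER13, and ETC1 is lowest in WT+Fe.

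Of 12 further genes of hair growth outside the 48, the authors' deposited tables list as lower against WT-Fe 4 in pye-1 (10.2% of all genes), none in PPL (0.0101%), 4 in SHR23 (10.6%), 5 in PEP45 (9.64%), 4 in WER13 (14.1%) and 1 in WER65 (11.5%), and 4 in WT-Fe against WT+Fe (11.7%). Listed as higher was 1 each in SHR23 (7.56% of all genes), WER13 (8.99%), WER65 (7.87%) and WT-Fe against WT+Fe (10.3%), in each case OXI1. PIP5K3, a lipid kinase, ERU and MRI, both receptor-like or receptor-associated kinases, and ROPGEF3, which activates ROP2, were the 4 listed in pye-1. MRI had 1.34 RPKM in pye-1 and 7.43 in WT-Fe (q = 2.05e-05 in the authors' deposited table). RHD3, RHD4, CSLD3, FER, SHV3 and TIP1 were listed in no comparison. OXI1, a kinase downstream of reactive oxygen, had 44.6 RPKM in pye-1, 37.6 in PPL, 55.3 in SHR23 and 52.9 in PEP45. It had 62.5 RPKM in WER13, 53.8 in WER65, 35.7 in WT-Fe and 9.43 in WT+Fe. By value PEP45 was thus close to WER65, but OXI1 was not listed in PEP45. The authors' deposited tables list OXI1 as higher against WT-Fe in SHR23 (q = 4.04e-05), WER13 (q = 5.63e-06) and WER65 (q = 0.000240), and in WT-Fe against WT+Fe (q = 4.96e-06).

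Markers of other cell types were listed in some of the same comparisons. Of 24 markers of endodermis, xylem, phloem, cortex, root cap and dividing cells, the authors' deposited tables list as lower against WT-Fe 9 in pye-1 (10.2% of all genes), 0 in PPL (0.0101%), 5 in SHR23 (10.6%), 8 in PEP45 (9.64%), 7 in WER13 (14.1%) and 5 in WER65 (11.5%), and 12 in WT-Fe against WT+Fe (11.7%). Listed as higher were 1 in SHR23 (7.56% of all genes), 2 in WER13 (8.99%) and 1 in WER65 (7.87%). The 7 endodermis markers, which include the Casparian strip proteins, summed to 81.0 RPKM in pye-1, 167 in PPL, 122 in SHR23, 105 in PEP45, 104 in WER13, 125 in WER65, 196 in WT-Fe and 559 in WT+Fe. All 6 xylem markers were listed as lower in WT-Fe against WT+Fe, and the 3 root cap markers were listed in no comparison of the authors' deposited tables. The 4 markers of green tissue summed to 40.2 RPKM in pye-1, 57.2 in PPL, 21.0 in SHR23 and 225 in PEP45. They summed to 8.20 RPKM in WER13, 4.60 in WER65, 186 in WT-Fe and 117 in WT+Fe, and LHCB2.1 was listed at 0 in WER65. WT-Fe, against which the lines were compared, was thus among the groups high in these markers. The part of other cell types in the levels of the 48 genes was not tested. PYE itself stood at 20.6 RPKM in pye-1, 25.3 in PPL, 45.8 in SHR23, 28.9 in PEP45, 30.3 in WER13, 27.5 in WER65, 45.1 in WT-Fe and 11.0 in WT+Fe. The authors' deposited tables list PYE as lower against WT-Fe in pye-1 (q = 0.000100), PPL (q = 0.0178), PEP45 (q = 0.00111) and WER65 (q = 0.000307), not in SHR23 or WER13, and as higher in WT-Fe against WT+Fe (q = 6.94e-05).

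Some of these levels are less firm than others. An annotated gene on the opposite strand overlaps 9 of the 48 genes, among them EXPA7, EXPA18, EXT10, RHS19, AT4G26010, AT1G30870, ADF11 and MRH2. Among the 48 genes, 12 have a relative in the set whose protein is at least 80% identical. Of all 48, 37 share no 50-base stretch with another gene, and AT4G08400 and AT4G08410 are the ones of which more than 10% of stretches recur. Effective library sizes, read from the steps of low values and after any scaling by the authors, lay between 14830000 and 24020000 reads.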

How the data were processed

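Poly(A)-selected, directional libraries were sequenced from whole roots, 3 samples for each of 8 groups, per the labels' protocols. The authors deposited RPKM for 33602 genes as 1 mean per group, and 7 comparison tables with a q-value per listed gene. The submitters' processing notes name TAIR10, FastQC, TopHat2 and edgeR, with no version or role. For the read counter, its strand setting, gene lengths, filters and the test behind the q-values, nothing is given in the sources used here. The comparison table headed PYE was taken as the one for PPL, because a separate table is headed pye-1 and its genes' directions fit the PPL column.

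Samples were grouped by their labels. Of 33602 genes, the 19767 that reached 1 RPKM in some group were kept. Differences were taken on log2(RPKM + 0.5), a scale that understates changes of low genes, and fold values and percentages are plain ratios. A gene counted as changed only where the authors' deposited table lists it. A planned limma test could not be fitted to 1 mean per group, so no SD, interval or test was computed, and pairs without an authors' table were described by genes at least 2-fold apart. Read numbers were estimated from RPKM, annotated transcript length and effective library sizes of 14830000 to 24020000 reads, which the steps of low values gave.

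Identifiers were matched to RefSeq TAIR10.1 by locus name (all 48 genes, and 32835 of 33602 overall). Motifs were searched on both strands of the 250 and 1000 bases before each gene start, and protein identity was computed over the longer of 2 proteins. Genes given in all 8 groups were, in each role, the one with the highest mean and the one with the largest log2 range; in each comparison, up to 6 with the smallest q, or the 4 largest differences where there was no table; those listed against the majority; and ROP2, listed nowhere. Up to 4 regulators per comparison were named by smallest q, and RHD6, WER, EGL3, GL3 and CPC are named besides. The genes, roles and lists were chosen with earlier results of these data known. Alternatives were another pseudocount, fold, level minimum and the set without genes whose protein is at least 80% identical to that of another. The counting step was tested on simulated data. Python 3.11.15, pandas 2.3.3, numpy 2.4.6, Biopython 1.88 and matplotlib 3.10.9 were used.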

Additional observations from a re-analysis of the deposited data

How the results depend on the processing

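Of 28 results, 119 values were recomputed under other settings. Of these, 100 stayed within the tolerance of 1.5-fold for counts and 19 did not. Only the medians were checked for a change of direction, and 0 changed. Some values could not move. All 48 genes pass the filter on low values, so medians without it are the same. Listed genes in PPL could only stay at 0. Counts without genes that have a near-identical relative are out of 36 and were set against counts out of 48. Keeping listed genes with a mean of 5 RPKM or more left 23 in pye-1, 24 in SHR23, 24 in PEP45 and 25 in WER13, and keeping those at least 2-fold apart left 2 in WER65. Without the 12 genes whose protein is at least 80% identical to that of another gene of the set, 36 remained. The counts at least 2-fold apart were then 23 for PPL against pye-1, 0 for SHR23 against pye-1, 1 for PEP45 against pye-1 and 21 for WER13 against WER65. In the full set of 48 genes these counts were 35, 1, 2 and 32, in the same order. At 1.5-fold in place of 2-fold, 15 genes in SHR23, 19 in PEP45 and 12 in WER13 were apart from pye-1 in either direction, and 3 differed between SHR23 and PEP45. With a pseudocount of 0.1 these counts against pye-1 were 5 in SHR23, 6 in PEP45 and 5 in WER13, and with 1 they were 0 in SHR23, 1 in PEP45 and 1 in WER13; a larger pseudocount shrinks differences of low genes. No paired analysis was possible because the deposited levels are group means without replicate numbers, and leaving out single samples was not run for the same reason. Low levels, such as XTH26 at about 2 reads in pye-1, are the least precise.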
